A study of Mus musculus with 3 samples.

Results

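The cytosolic ribosomal protein genes encode the protein part of the ribosome that translates nuclear messages in the cytoplasm. They were taken as every gene whose platform symbol, standing alone for a probe set, has the form of an Rpl, Rps or Rplp name, without pseudogenes and without the Rps6k kinases. For each gene the probe set with the highest mean over the 3 arrays was read, which gave 48 of the 18193 genes named on the array. Of these, 24 belong to the large (60S) subunit, 22 to the small (40S) subunit, and 2, Rplp0 and Rplp2, to the acidic stalk of the large subunit. The choice used names and brightness only, and no rule on the difference between the livers. The brightness takes in the Cre array, so the Cre value had a part in which probe set was read.

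RNA came from whole livers of 3 mice of mixed strain background, aged 3 months, and each mouse gave 1 single-colour oligonucleotide array. All 3 had received 400 microL of an adeno-associated virus of serotype 8 into the peritoneum, and the livers were taken 1 week later. In 2 mice, control virus 1 and control virus 2, the virus was MUP-EGFP-AAV8, which carries a green fluorescent protein. In 1 mouse it was MUP-iCre-AAV8, which carries the Cre recombinase that cuts out floxed DNA. The design text describes the mice as floxed for HNF4alpha, the nuclear receptor behind much of hepatocyte identity, under both viruses, whereas the sample labels give the controls as wild type and the Cre liver as a knockout. A difference in genotype present before the injection therefore cannot be told apart from the effect of the recombinase. The labels spell out neither the promoter in the viruses nor the sex of the animals.

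A ribosome holds 1 copy of nearly every one of these proteins, and their messages are among the most abundant of the liver. Cells generally make them together: the messages begin with a run of pyrimidines at the 5′ end, the TOP element, through which mTOR and LARP1 control their translation, while the ribosomal RNA that they join is made by RNA polymerase I. Growing and dividing cells make more ribosomes. A few members have a close copy, such as Rpl22l1 beside Rpl22, that can stand in for the parent protein or is used in other tissues.

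The promoters of the 7 genes that passed the test described below are shown because the pyrimidine run around the start site, which becomes the beginning of the message, is the feature most often named as common to this family. The sequences are from RefSeq (assembly GRCm38.p6), 5′ to 3′ on the strand of the gene, with 80 bases before the annotated start and the first 25 bases from it. Capitals mark runs of at least 8 pyrimidines within 25 bases of the start and any copy of the ETS core CCGGAAG on either strand.
Rpl22l1, chr3:28805428-28805532, plus strand: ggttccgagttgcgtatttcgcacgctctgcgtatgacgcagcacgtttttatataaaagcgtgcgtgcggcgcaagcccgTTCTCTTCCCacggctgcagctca
Rpl35, chr2:39005107-39005211, minus strand: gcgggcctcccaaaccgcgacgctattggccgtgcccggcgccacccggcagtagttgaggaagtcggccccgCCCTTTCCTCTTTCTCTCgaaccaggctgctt
Rpl27, chr11:101442165-101442269, plus strand: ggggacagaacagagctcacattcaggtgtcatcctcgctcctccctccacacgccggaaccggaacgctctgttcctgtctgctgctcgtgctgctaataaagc
Rpl13a, chr7:45128721-45128825, minus strand: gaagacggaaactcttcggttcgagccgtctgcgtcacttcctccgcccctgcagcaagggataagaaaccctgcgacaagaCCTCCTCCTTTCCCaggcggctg
Rpl38, chr11:114668500-114668604, plus strand: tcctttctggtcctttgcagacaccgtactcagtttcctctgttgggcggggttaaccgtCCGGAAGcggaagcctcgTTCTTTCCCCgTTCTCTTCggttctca
Rps26, chr10:128626482-128626586, minus strand: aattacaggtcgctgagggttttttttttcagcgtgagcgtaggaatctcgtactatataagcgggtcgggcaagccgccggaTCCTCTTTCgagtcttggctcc
Rps18, chr17:33955641-33955745, minus strand: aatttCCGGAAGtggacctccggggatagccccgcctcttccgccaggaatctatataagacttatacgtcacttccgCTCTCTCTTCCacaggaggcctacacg
Such a run was present in 6 of these 7 promoters, Rpl27 being the exception, and Rpl38 had a pair of them.

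Over the family, 42 of the 48 genes had a RefSeq promoter, and 21 of them held a pyrimidine run on the sense strand within 25 bases of the start, against 19.4% of the 27025 promoters in the table. In the whole window, 250 bases before to 50 after the start, the ETS core (CCGGAAG or CTTCCGG) was present in 20 (47.6%), against 9.12% of all promoters and 17.0% of those of fitted genes. The letters CTTTCC or GGAAAG, which also occur inside pyrimidine runs, were in 18 (42.9%), against 26.3%. The E-box CACGTG, bound by Myc among others, was in 3 (7.14%), against 7.24%. The letters CAAAGTCCA or TGGACTTTG, a core of HNF4 binding sequences, were in 2 (4.76%), Rpl11 and Rpl22l1, against 0.477%. These are matches of letters and describe the promoters only.

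In the Cre liver the ribosomal protein genes stood slightly higher than in the controls, and nearly as a group. The median difference over the 45 members bright enough to be fitted was 0.35 on the log2 scale, or 1.28-fold, with the middle of the distribution between 0.29 and 0.49, while the median over all 12735 fitted genes was 0.09. The Cre value lay above both controls for 41 of the 45 (91.1%), against 49.7% of all fitted genes, and below both for 2, against 33.6%. By at least 0.2 it lay above both for 35, against 32.0% of all genes, and by at least 0.5 for 5, against 13.7%. By 1 log2 unit 0 members lay above both, against 3.67% of all genes.

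The test across all genes used limma, with p-values adjusted over the 12735 genes and a threshold of 0.05. By it 7 members rose (15.6%) and 0 fell, against 6.71% of all genes that rose and 5.21% that fell. Bright genes were called more often. Of the 33 members read at a mean log2 level of 11 or more 5 rose (15.2%) and 0 fell. Of the 430 other genes at that level 45 rose (10.5%) and 95 fell. At an unadjusted limma p under 0.05, 31 of the 45 fitted members were higher, against 20.4% of all genes, and 0 lower, against 10.8%. Each difference is the Cre value less the mean of both controls, in log2 units, and SE is its standard error as moderated by limma. The control livers differed from each other by a median of 0.07 over the members, against 0.15 over all genes. At a mean of 11 or more this median was 0.06 over members and 0.09 over other genes, and over members below 11 it was 0.12. Since 1 mouse received Cre, its own spread was not measured, and an exact permutation test of 1 array against 2 could not go below p = 0.333.

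**Figure D1:**
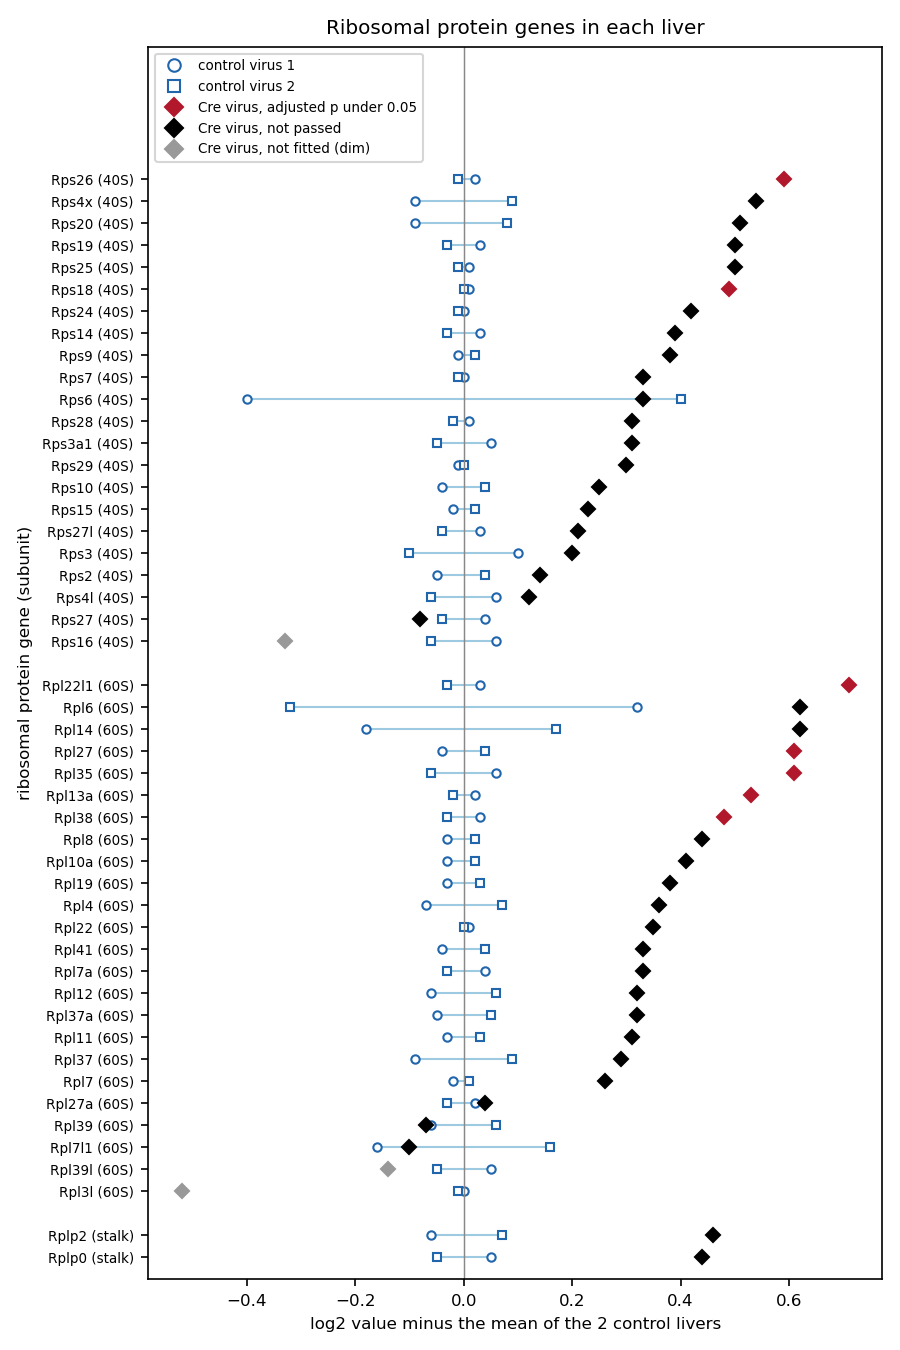
Log2 value of each of the 48 ribosomal protein genes in each liver, minus the mean of the 2 control livers (horizontal axis); blue lines join the controls and diamonds are the single Cre liver. The Cre liver lay above both controls for 41 genes, and the 7 red diamonds, at 0.48 to 0.71, passed the limma test.

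The 60S members had a median difference of 0.36. Of 22 fitted, 20 lay above both controls (90.9%) and 5 rose (22.7%), against 49.7% and 6.71% of all fitted genes. Rpl22l1, the paralogue of Rpl22, read 10.36 and 10.30 with control virus 1 and 2 and 11.05 with Cre virus. The controls were close together and the Cre liver stood above both. It rose 1.64-fold (0.71 ± 0.11 SE, limma adjusted p = 0.03).

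Rpl35, which lies at the exit of the tunnel through which the new protein leaves, read 11.75 and 11.63 under control virus and 12.30 under Cre virus, and rose 1.53-fold (0.61 ± 0.10 SE, limma adjusted p = 0.0389). Rpl27, another protein of the large subunit, read 10.60 and 10.68 against 11.25 and rose by the same fold (0.61 ± 0.11 SE, limma adjusted p = 0.0426). In both genes the groups did not overlap. Rpl13a, which in immune cells can leave the ribosome to silence inflammatory messages, read 12.85 and 12.81 against 13.35 (0.53 ± 0.09 SE, limma adjusted p = 0.0358). Rpl38, whose loss in mice disturbs the skeleton through the translation of Hox messages, read 12.74 and 12.68 against 13.19 (0.48 ± 0.09 SE, limma adjusted p = 0.0452). For both, the control values lay close together and the Cre value stood above them.

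Rpl6 and Rpl14, neighbours on the surface of the large subunit, had differences as large as those of Rpl35 but did not pass. Rpl6 read 12.17 and 11.53 under control virus and 12.47 under Cre virus (0.62 ± 0.28 SE, limma adjusted p = 0.228). Rpl14, read by a dim probe set, stood at 4.32 and 4.67 against 5.12 (0.62 ± 0.22 SE, limma adjusted p = 0.156). In each the Cre liver was highest, and the controls were farther apart than for most members. Of the other 60S members, Rpl8, Rpl10a, Rpl19, Rpl4, Rpl22, Rpl41, Rpl7a, Rpl12, Rpl37a, Rpl11, Rpl37 and Rpl7 had differences from 0.44 down to 0.26, with limma adjusted p from 0.0634 to 0.282, and each lay above both controls. Rpl11, which also binds the p53 regulator MDM2 when ribosome assembly is disturbed, read 11.93 and 11.99 against 12.27. Rpl27a, at 8.12 and 8.07 against 8.14, exceeded the higher control by 0.02 only, and Rpl39, a small protein of the exit tunnel, read 5.59 and 5.71 against 5.58.

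The 40S members had a median difference of 0.33. Of 21 fitted, 19 lay above both controls (90.5%) and 2 rose (9.52%), against 49.7% and 6.71% of all fitted genes. Rps26, which touches the message on its way out of the small subunit, read 12.11 and 12.08 under control virus and 12.68 under Cre virus. It rose (0.59 ± 0.09 SE, limma adjusted p = 0.0315). Rps18, a protein of the head of the small subunit, read 12.31 and 12.30 against 12.79 and rose 1.40-fold (0.49 ± 0.09 SE, limma adjusted p = 0.0435). In both, the control values nearly coincided and the Cre liver stood clear of them.

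Several other 40S members had like differences and missed the threshold. Rps4x, an X-linked gene, read 12.15 and 12.33 against 12.78 (0.54 ± 0.12 SE, limma adjusted p = 0.0617). Rps20 read 12.30 and 12.47 against 12.90 (0.51 ± 0.11 SE, limma adjusted p = 0.0643). Rps19, the gene most often mutated in Diamond-Blackfan anaemia, read 11.26 and 11.20 against 11.73 (0.50 ± 0.10 SE, limma adjusted p = 0.0527). In all 3 the Cre value was above both controls, and for Rps4x and Rps20 the controls lay farther apart than for Rps18.

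Rps25, Rps24, Rps14, Rps9, Rps7, Rps28, Rps3a1, Rps29, Rps10, Rps15, Rps3 and Rps2 had differences from 0.50 down to 0.14, each above both controls and none past the threshold (limma adjusted p from 0.0587 to 0.38). Rps29 read 13.25 and 13.26 against 13.55, and Rps2 read 12.72 and 12.81 against 12.91. Rps6, the target of the S6 kinases, was read by a probe set at 6.23 and 7.03 under control virus and 6.96 under Cre virus (0.33 ± 0.37 SE, limma adjusted p = 0.585). Its Cre value lay between the controls, and without control virus 1 the difference was -0.07. Rps16 was at 2.68, 2.56 and 2.29, below the level of 3.77 required for the fit, and no difference is given for it.

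The stalk of the large subunit recruits the elongation factors. Rplp0, its base, read 12.31 and 12.21 under control virus and 12.70 under Cre virus (0.44 ± 0.10 SE, limma adjusted p = 0.0663). Rplp2, one of the acidic proteins that it carries, read 12.00 and 12.13 against 12.52 (0.46 ± 0.11 SE, limma adjusted p = 0.071). Both lay above both controls and neither passed.

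Of the 6 paralogues, 4 were fitted and 1, Rpl22l1, rose. Beside Rpl22l1, its parent Rpl22 read 12.12 and 12.11 under control virus and 12.47 under Cre virus (0.35 ± 0.09 SE, limma adjusted p = 0.0841). Both lay above both controls; the difference between the 2 genes was not tested. Rps27l, a p53 target, read 12.44 and 12.37 against 12.62 (0.21 ± 0.09 SE, limma adjusted p = 0.22). By its suffix, its probe set 1435429_x_at has some probes that match other sequences, so this level may not be specific to Rps27l. The parent Rps27 was read only by a dim probe set at 5.40 and 5.32 against 5.28. Rpl7l1 read 7.66 and 7.98 against 7.72, between the controls, and its parent Rpl7 read 11.59 and 11.62 against 11.87 (0.26 ± 0.10 SE, limma adjusted p = 0.157). Rps4l, a relative of Rps4x, read 8.34 and 8.22 against 8.39. Rpl3l, known from muscle, and Rpl39l, known from testis, were below the level for the fit in every liver, at 2.80, 2.79 and 2.27 and at 2.90, 2.80 and 2.71.

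The members also sort by the brightness of their signal. Of the 33 members read at a mean log2 level of 11 or more, 33 lay above both controls, with differences from 0.14 to 0.62 and a median of 0.38. The 430 other genes read that brightly had a median of 0.02, and 47.0% of them lay above both controls. In the band from 12 to 13, which holds 25 members, the members had a median of 0.38 and all 25 lay above both controls, whereas the 121 other genes had a median of -0.09 and 38.8% lay above. The bright members thus stood on 1 side and the other bright genes on both. Of the 13 members read below 9, 10 were fitted, and of these 6 lay above both controls, 2 below and 2 between. Of all fitted genes 49.7% lay above both and 33.6% below.

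**Figure D2:**
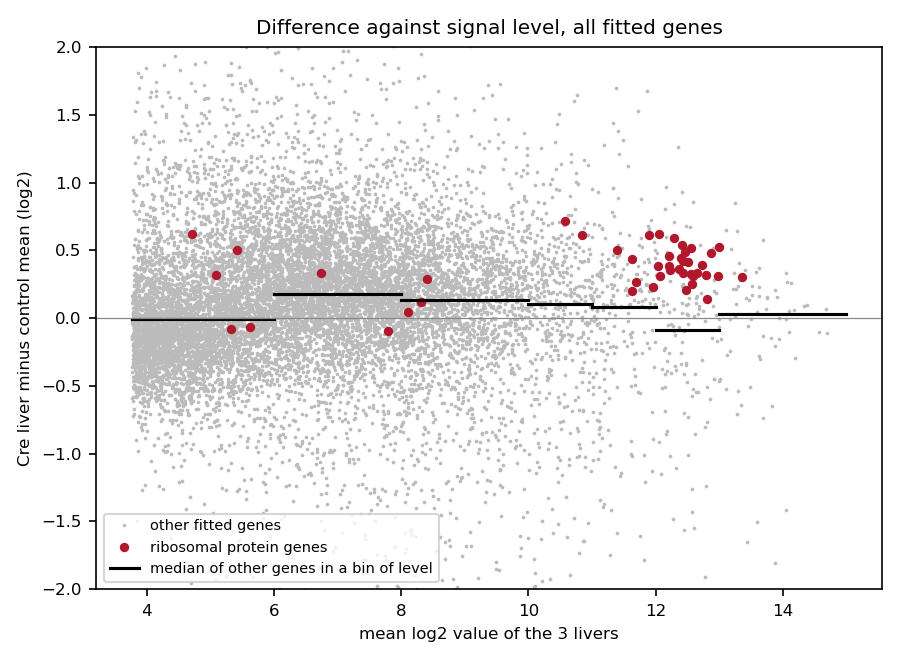
Difference between the Cre liver and the control mean (vertical axis, log2) against the mean log2 value of the 3 livers (horizontal axis) for the 12735 fitted genes; black bars are medians of the other genes in bins of level, and 326 genes beyond 2 log2 units either way are not drawn. The bright ribosomal protein genes (red) form a compact cloud above 0, between 0.14 and 0.62 at a level of 11 or more, where the other genes spread on both sides.

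Many ribosomal protein genes are read by several probe sets, so each of the 103 single-gene probe sets was also taken as its own row, of which 94 were bright enough for the fit. Among these 94, 4 rose and 0 fell, against 2.75% and 3.04% of the 24461 probe sets fitted, and 83 lay above both controls, against 45.9%. All 67 with a mean of 9 or more lay above both controls, with differences from 0.14 to 0.87. Those below 6 lay on both sides: of 27, fitted or not, 13 lay above both controls and 10 below. Of the 23 genes with several probe sets, 7 had probe sets of both signs, and in each of them a probe set below 9 had the negative difference.

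Rps18 shows this pattern within 1 gene. Its bright probe sets 1448739_x_at, 1435712_a_at and 1455572_x_at had differences of 0.49, 0.42 and 0.87, and the dim 1421837_at, at 4.51 and 4.69 against 4.43, had -0.17. The still dimmer 1450390_x_at and 1421838_at, which were not fitted, had 0.14 and 0.01. Rpl35 had 5 bright probe sets, from 0.44 to 0.81, of which 1455950_x_at read 11.41 under control virus both times and 12.03 under Cre virus. Its dim probe set 1454833_at was at 3.51, 2.70 and 2.72. Rpl27 had differences of 0.61 from 1453096_x_at and 1448217_a_at and 0.26 from 1416099_at, and each lay above both controls.

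Ribosomal protein genes have many processed pseudogenes, so the design of the probe sets matters for what is read. By the platform's suffixes, _a_at marks a set that reads several transcripts of 1 gene, _s_at one that reads transcripts of several genes, and _x_at one with some probes that match other sequences. At a mean of 9 or more the median difference was 0.40 for the 26 probe sets with _a_at, 0.40 for the 34 with _x_at and 0.38 for the 5 with no such suffix. The latter were Rpl19 (0.38), 1416603_at of Rpl22 (0.38), 1416099_at of Rpl27 (0.26), Rplp0 (0.44) and Rps15 (0.23), each above both controls. None of these 5 passed. Of the 33 members read by a suffixed probe set 7 rose (21.2%), against 6.71% of all fitted genes. Of the 12 fitted members read by an unsuffixed one 0 rose. Among the 7, Rpl35, Rpl27, Rpl13a, Rpl38 and Rps18 were read by _x_at sets, so their levels may not be specific to the gene. Rpl22l1 and Rps26 were read by _a_at sets. With every suffix left out, _a_at included, 0 of 21 members passed, against 4.06% of all genes, their median being 0.23. That setting reads mostly dim probe sets. Of the 25 fitted ones without a suffix, 5 had a mean of 9 or more and 14 a mean below 6. A further 110 probe sets list a ribosomal protein gene together with other genes or pseudogenes and were not named. Of the 105 among them that were fitted, 91 (86.7%) lay above both controls, against 46.2% of all probe sets in that fit, with a median of 0.37, and 3 rose against 2.78%.

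**Figure D3:**
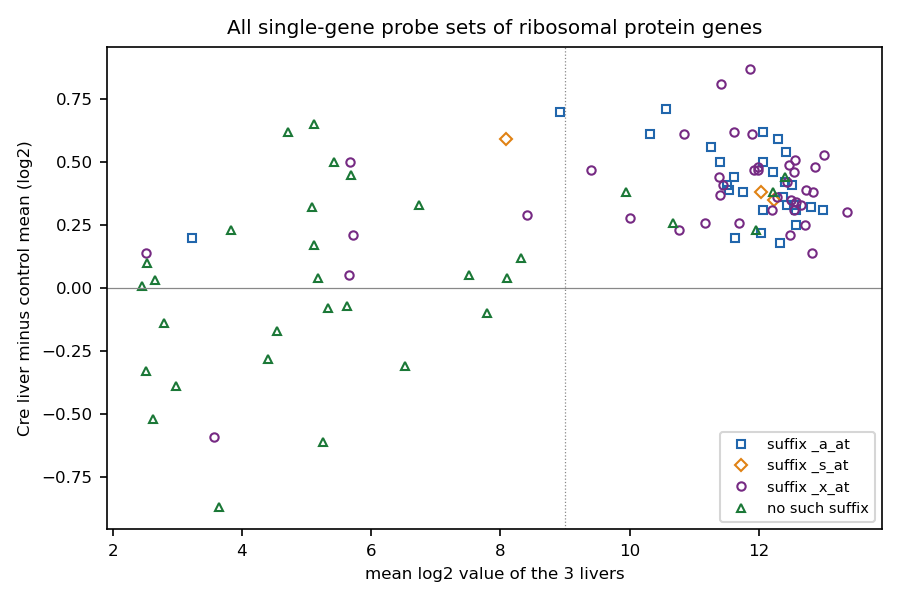
Difference between the Cre liver and the control mean (vertical axis, log2) against the mean log2 value of the 3 livers (horizontal axis) for the 103 single-gene probe sets, with symbols for the suffix of the probe set. All 67 to the right of the dotted line at 9 lay above 0, whereas the dim ones scattered from -0.87 to 0.65 below a level of 6.

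How many members passed depended on the settings of the fit. Without an intensity trend in limma 0 members rose, against 5.16% of all fitted genes, and with robust moderation 12 did, against 8.24%. With no filter on dim genes 0 rose, against 2.45%, and with the 50th percentile as the filter 9, against 8.41%. After median centring 14 rose, against 9.5%, and after quantile normalization 17, against 9.36%. From the mean of each gene's probe sets 5 rose, against 6.26%, and without suffixed probe sets 0, against 4.06%. At an adjusted p of 0.10 there were 23, against 14.0%, and at 0.01 there were 0, against 0.722%. The median over the members lay at 0.32 after quantile normalization, at 0.36 after median centring and at 0.23 without suffixed probe sets, where 14 of 21 lay above both controls and 4 below. By limma 0 members fell under any of these settings. The limma adjusted p over the alternatives ranged from 0.0113 to 0.0658 for Rpl22l1, from 0.0141 to 0.0891 for Rps26 and from 0.0181 to 0.602 for Rps18.

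Of the ribosomal protein genes whose names have another form, 2 were on the array. Rpsa, a 40S protein that is also known as a laminin receptor, read 12.04 and 11.90 under control virus and 12.57 under Cre virus and rose (0.59 ± 0.11 SE, limma adjusted p = 0.0452). Fau, which encodes a 40S protein fused to a ubiquitin-like one, read 11.96 and 12.02 against 12.14 (0.15 ± 0.10 SE, limma adjusted p = 0.354). The mitochondrial ribosome, a separate machine that translates the messages of the mitochondrial genome, had 76 fitted genes with a median difference of 0.13, and 0 rose and 0 fell by limma, with 12 of 76 higher and 3 lower at an unadjusted p under 0.05, where 20.4% and 10.8% of all genes were. Of these 76, 47 (61.8%) lay above both controls and 23 below, against 49.7% and 33.6% of all fitted genes.

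Initiation factors bring the ribosome to the message. Their 29 fitted genes had a median of 0.31, with 24 (82.8%) above both controls, against 49.7% of all genes. By limma 2 rose (6.9%) and 0 fell, against 6.71% and 5.21%. At an unadjusted limma p under 0.05, 12 of the 29 were higher and 0 lower, against 20.4% and 10.8% of all genes. Eif2b4, a subunit of the exchange factor that recharges eIF2, read 8.27 and 8.34 against 9.10 (0.79 ± 0.13 SE, limma adjusted p = 0.0341). Eif1ax, which helps to find the start codon, read 8.28 and 8.19 against 8.99 (0.76 ± 0.13 SE, limma adjusted p = 0.0389). Among 9 genes of elongation and termination 1 rose (11.1%), against 6.71% of all fitted genes. Eef2, which moves the ribosome along the message, was that gene, at 11.57 and 11.54 against 12.09 (0.54 ± 0.09 SE, limma adjusted p = 0.0417). Eef1a1, another abundant TOP message, read 13.37 and 13.38 against 13.53 (0.15 ± 0.08 SE, limma adjusted p = 0.286).

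Other TOP transcripts had a median of 0.18 over 9 genes, of which 2 rose (22.2%), against 6.71% of all fitted genes. Snhg1, a host transcript of small nucleolar RNAs, read 7.53 and 7.56 against 8.42 (0.88 ± 0.13 SE, limma adjusted p = 0.0297), and Nap1l1, a histone chaperone, read 8.20 and 8.40 against 9.17 (0.87 ± 0.15 SE, limma adjusted p = 0.039). Tpt1 read 13.86 under control virus both times and 14.02 under Cre virus. The 9 differences ranged from 0.08 to 0.88.

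Genes of ribosome assembly had a median of 0.16 over 56. Of these 56, 1 rose (1.79%) and 1 fell, against 6.71% and 5.21% of all fitted genes. Nhp2, part of the particles that modify ribosomal RNA, read 8.53 and 8.27 against 9.42 (1.02 ± 0.16 SE, limma adjusted p = 0.0344). Rcl1, needed for the processing of the small subunit's RNA, read 10.40 and 10.34 against 9.52 (-0.85 ± 0.11 SE, limma adjusted p = 0.0225). The 12 genes of RNA polymerase I and its factors had a median of 0.39. Of these 12, 1 rose (8.33%) and 0 fell, against 6.71% and 5.21% of all fitted genes. The gene that rose was the subunit Polr1e, at 4.91 and 4.84 against 5.96 (1.08 ± 0.16 SE, limma adjusted p = 0.0305).

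Of 14 regulators of growth and of TOP translation, 0 rose and 1 fell by limma, with 5 higher and 2 lower at an unadjusted p under 0.05, against 20.4% and 10.8% of all genes. The gene that fell was Eif4ebp2, which holds back the cap-binding factor eIF4E, at 9.28 and 9.42 against 8.61 (-0.74 ± 0.13 SE, limma adjusted p = 0.0426). Myc, a transcription factor that drives ribosome production, read 5.23 and 5.20 against 6.03 (0.81 ± 0.16 SE, limma adjusted p = 0.0509). Mtor and Larp1 each had a difference of 0.44 and did not pass.

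**Figure D4:**
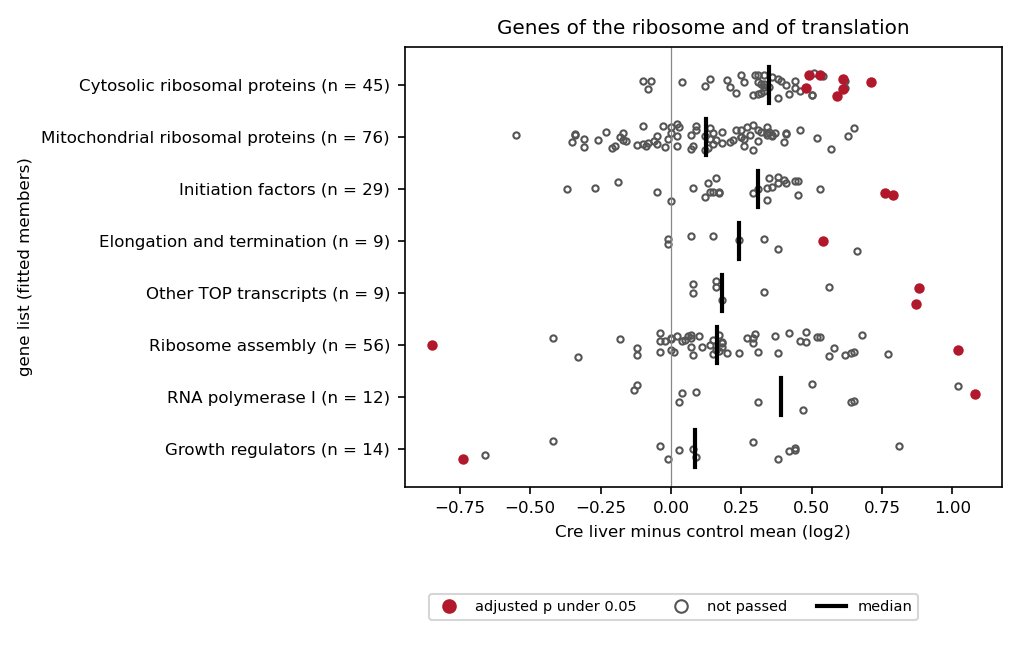
Difference between the Cre liver and the control mean (horizontal axis, log2) for the fitted genes of 8 lists; points are genes, filled red where the limma adjusted p was under 0.05, and black bars are list medians. The cytosolic ribosomal proteins cluster around 0.35, whereas the mitochondrial ones spread on both sides of 0.13.

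The livers also differed in other ways that accompany these values. Hnf4a itself was lower in the Cre liver by 4 of 4 probe sets, and 1421983_s_at fell from 7.69 and 7.72 to 6.52 (-1.18 ± 0.14 SE, limma adjusted p = 0.0323 over probe sets). The other 3 did not pass: 1427001_s_at, the brightest, had -0.55 (limma adjusted p = 0.0598), 1427000_at -0.67 (0.196) and 1450447_at -0.61 (0.176). At gene level, where 1427001_s_at is read, the limma adjusted p was 0.0401. Whether the probes lie in the deleted part was not examined here. Of 9 proliferation genes fitted, 8 rose (88.9%), against 6.71% of all fitted genes. Among them were Mki67, at 3.24 and 3.17 against 6.26, and Cdk1, at 6.08 and 5.93 against 8.07. The summed level of the 9, on the log2 scale, was 7.96 and 7.83 under control virus and 9.78 under Cre virus. Of 10 Kupffer cell and macrophage markers 9 lay above both controls, against 49.7% of all fitted genes, and 1, Marco, rose, against 6.71%. At an unadjusted limma p under 0.05, 1 of these markers was higher and 0 lower, against 20.4% and 10.8% of all genes. The summed level of these markers was 10.17 and 10.84 against 11.16, with the controls far apart. Their part in the height of the ribosomal protein genes was not tested.

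Markers of other cell types and of the hepatocyte itself were summed in the same way. The summed level of 6 hepatocyte markers was 16.68 and 16.71 against 16.72. Of these 6, Apoa1, Fgb and Cps1 lay above both controls, by differences of 0.09, 0.16 and 0.33, and Alb (-0.11), Ttr (-0.10) and Hnf4a below, of which Hnf4a fell. Sums for 8 endothelial markers were 10.31 and 10.45 against 10.48, for 8 stellate cell markers 11.16 and 11.26 against 11.53, for 8 lymphocyte markers 7.26 and 7.24 against 7.40 and for 6 neutrophil markers 6.20 and 6.10 against 6.01, with 0 called in these 4 lists by limma. At an unadjusted limma p under 0.05, 2, 1, 1 and 0 of them were higher, against 20.4% of all genes, and 0 lower, against 10.8%. Of the lymphocyte markers, Ms4a1, Cd2 and Cd3g were below the level for the fit. Of 5 cholangiocyte markers 2 were fitted, and 1 of them, Sox9, rose, at 3.87 and 4.82 against 6.69, where 6.71% of all fitted genes rose. Epcam, at 4.28 and 4.32 against 4.58, did not pass (limma adjusted p = 0.338). Krt19, Krt7 and Cftr were below that level, with differences of -0.16, 0.02 and 0.05. The sum was 5.96 and 6.22 against 7.26, and Sox9 had the largest difference of these markers (2.35). Of 3 erythroid genes on the array, Alas2 fell, at 8.61 and 8.92 against 5.49, and the others were below the level. In whole tissue, fewer cells of a type and less RNA per cell cannot be told apart. The 5 reference genes had a median difference of -0.02, with Actb at 12.87 and 12.71 against 12.77, and 0 of them passed by limma, with 1 of 5 higher at an unadjusted p under 0.05, against 20.4% of all genes.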

How the data were processed

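The authors deposited 1 log2 value for each probe set and array; the submitters' processing notes name Partek 6.5 and RMA. RMA evens out the array distributions, so a shift shared by all genes would be hidden. No source used here states the log base, and base 2 was read from the highest value (15.048 on each array). Array medians were 4.18, 4.15 and 4.16, and no depth applies to arrays, whose number limits the precision. Of 45101 probe sets, 34945 listed 1 gene, and symbols were updated by Entrez ID for 34741.

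Genes whose mean reached the 30th percentile, 3.77, entered the fit in limma 3.58.1 in R 4.3.3 (lmFit, eBayes with trend), Benjamini-Hochberg over 12735 genes, two-sided. The controls gave 1 residual degree of freedom and moderation 3.18 more; the spread of the single Cre array was taken to equal theirs. Labels call the controls biological replicates.

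The members, lists and settings were chosen with earlier results of these data known. Named were members past the threshold, the 10 largest differences, paralogues with parents, stalk genes, Rps6, the brightest and dimmest member, up to 4 called genes of each other list, and any gene needed to describe a list or a probe set pattern. Alternatives covered moderation, filters, scaling, the probe set read, thresholds and each control left out. Python 3.11.15 with matplotlib 3.10.9 drew the figures.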

Additional observations from a re-analysis of the deposited data

How the results depend on the processing

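In place of 7 members that rose, 0 did without the trend, 12 with robust moderation, 0 with no filter on dim genes, 14 after median centring, 17 after quantile normalization, 0 without suffixed probe sets, 23 at an adjusted p of 0.10 and 0 at 0.01; it was 9 with a filter at the 50th percentile and 5 with the mean of probe sets, and 0 fell under each of these. Members below both controls numbered 5 with no filter, 1 after median centring and 4 without suffixed probe sets. Those above both numbered 14 of 21 without suffixed probe sets and 39 to 41 otherwise. With a control left out, the Cre value was set against the remaining control only. It was then above for 41 members and below for 4 without control virus 1, and above for 43 and below for 2 without control virus 2. The median of 0.35 became 0.33 with no filter, 0.36 after median centring, 0.32 after quantile normalization, 0.33 with the mean of probe sets, 0.23 without suffixed probe sets and 0.38 over the members read at 11 or more, an alternative chosen after seeing the data; it was 0.35 to 0.38 with a control left out.

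Of the probe sets, 0 rose without the trend, 15 with robust moderation, 22 after median centring, 24 after quantile normalization and 0 without suffixed ones, in place of 4. In the main fit 2.75% of all probe sets rose, and the shares under the other settings are not given here. The other lists held 207 fitted genes, of which 8 rose and 2 fell in the main fit, where 6.71% of all fitted genes rose. Without the trend 3 rose and 1 fell, against 5.16% of all genes that rose. With robust moderation 15 rose and 4 fell, against 8.24%. Median centring gave 16 and 4, against 9.5%, and quantile normalization also gave 16 and 4, against 9.36%. The sign turned for Rpl35 (-0.39) and Rps18 (-0.17) without suffixed probe sets, where a dim probe set stood for each, for Rps4x (-0.02) with the mean of probe sets, which takes in a dim one, for Rpl7l1 (0.06 without control virus 2, -0.26 without control virus 1) and for Rps6 (-0.07 without control virus 1, 0.73 without control virus 2). The median of all genes was 0.09, and 0.10 and 0.02 after median centring and quantile normalization. The cause of the other moves was not tested.

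With a control left out no residual degree of freedom remains, so those are values with no test. No paired analysis was possible because the Cre group holds 1 array and shares only 1 replicate number with the controls. Dim probe sets, near the background, limit what can be said of Rps16, Rpl3l, Rpl39l, Rps27, Rpl39 and Rpl14.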
